A study of Homo sapiens with 4 samples.

Results

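The bitter taste receptor genes clustered on chromosome 12 were followed in TC-71, an established Ewing sarcoma (EWS) cell line, after exposure to exosomes (EXOs). The 10 genes are TAS2R14, TAS2R30, TAS2R43, TAS2R10, TAS2R13, TAS2R19, TAS2R20, TAS2R31, TAS2R46 and TAS2R50. They were chosen from their values in the comparison described here, because several of them were higher together, so their own changes are a description and carry no test. A gene was read from every row of the deposited table whose platform annotation held its symbol and no other. This gave 10 rows of 67539 for 9 of the 10 genes. TAS2R31 had no row of its own, since its symbol stands in a row of several symbols, and it has no value here. TAS2R14 had 2 rows, 1 with a junction identifier and 1 with an exon region identifier. Whether a value summarizes that feature alone or a whole transcript cluster was not stated, so a difference in level between rows is not read as one between genes.

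The cells were profiled on 4 GeneChip Human Transcriptome Arrays 2.0. The exposed group (TC-71 + TC-CD99neg EXOs, labelled exoTCsiCD99, replicates C and D) was given EXOs released by TC-71 cells in which an shRNA had silenced CD99, a surface protein that marks EWS, at 10 µg per 5000 cells for 24 h in serum-free conditions. The other group was untreated TC-71 cells (replicates A and B). The arrays within a group are labelled as biological replicates, with nothing on how the cultures were separated, so the p-values and the errors measure the spread between these arrays. The untreated cells received no EXOs of any kind, so exposure to EXOs and the CD99neg origin of the EXOs cannot be told apart. All values come from 1 cell line, and EXOs of only 1 silenced line were used for the arrays. The values are log2 signals, with array medians of 5.45 and 5.44 in exposed cells and 5.42 and 5.38 in untreated cells. Arrays of the same group correlated with a Pearson's r of 0.9975 (exposed) and 0.9971 (untreated) over all rows.

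Bitter taste receptors of the TAS2R family are G protein-coupled receptors that bind bitter compounds at the surface of taste receptor cells. In those cells they act through the G protein gustducin, phospholipase C beta 2, release of calcium through an inositol trisphosphate receptor, and the cation channel TRPM5. Their coding sequences have no introns, several members of the chromosome 12 cluster are close copies of each other, and some members are also transcribed outside the mouth. In the RefSeq gene table (GRCh38.p14), 9 of the 10 genes lay within the span of PRH1, a salivary proline-rich protein gene, and TAS2R10 lay outside it. RefSeq also lists PRH1-TAS2R14, a gene that joins the start of PRH1 to TAS2R14. Positions of the rows are not printed, since no genome build was stated for the annotation of the array.

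The promoters are shown because rows of neighbouring receptors were higher together and because TAS2R14 has more than 1 possible start. RefSeq promoters (300 bases around the annotated start, build GRCh38.p14) were found for 7 of the 10 genes, all on the minus strand, as is PRH1-TAS2R14. TAS2R31, TAS2R43 and TAS2R46 had no entry. Each is written 5' to 3', with capitals where a motif was matched on either strand. The motifs searched were the TATA box TATAAA, the octamer ATTTGCAT that POU factors bind, and TGANTCA, a loose form of the AP-1 site with any base at its centre. In TAS2R13 a pair of TATAAA matches on opposite strands overlap. The first sequence (minus strand, chr12:10939214-10939513) belongs to TAS2R14 itself and the next (minus strand, chr12:11171562-11171861) to PRH1-TAS2R14. The other pair is that of TAS2R10 (minus strand, chr12:10826309-10826608), which lies outside PRH1, and of TAS2R13 (minus strand, chr12:10909513-10909812), which lies inside it.
TAS2R14: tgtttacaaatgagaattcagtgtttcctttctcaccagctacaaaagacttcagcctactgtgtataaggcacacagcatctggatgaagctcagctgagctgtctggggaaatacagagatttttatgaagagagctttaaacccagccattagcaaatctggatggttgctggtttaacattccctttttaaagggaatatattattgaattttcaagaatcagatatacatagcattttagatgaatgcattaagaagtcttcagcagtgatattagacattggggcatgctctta
PRH1-TAS2R14: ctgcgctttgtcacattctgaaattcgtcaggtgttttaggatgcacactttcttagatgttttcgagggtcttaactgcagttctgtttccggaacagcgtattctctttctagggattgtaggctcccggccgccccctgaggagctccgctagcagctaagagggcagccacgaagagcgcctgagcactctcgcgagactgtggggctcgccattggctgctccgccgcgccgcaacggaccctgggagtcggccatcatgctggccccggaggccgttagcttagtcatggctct
TAS2R10: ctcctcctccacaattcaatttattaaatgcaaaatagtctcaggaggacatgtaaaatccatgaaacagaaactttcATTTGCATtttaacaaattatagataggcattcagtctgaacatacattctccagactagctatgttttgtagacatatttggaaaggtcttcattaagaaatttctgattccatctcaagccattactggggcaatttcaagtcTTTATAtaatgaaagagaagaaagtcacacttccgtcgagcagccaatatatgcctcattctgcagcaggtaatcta
TAS2R13: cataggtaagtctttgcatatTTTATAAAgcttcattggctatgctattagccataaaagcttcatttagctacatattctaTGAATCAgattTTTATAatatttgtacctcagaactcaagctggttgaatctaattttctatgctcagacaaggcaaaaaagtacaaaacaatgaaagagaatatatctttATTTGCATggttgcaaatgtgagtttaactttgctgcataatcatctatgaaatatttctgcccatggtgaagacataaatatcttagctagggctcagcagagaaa

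The start of TAS2R14 held 0 CG pairs and a GC content of 37.3%, whereas that of PRH1-TAS2R14 held 21 CG pairs and 58.0% GC. Neither held any of the motifs. The 7 receptor promoters had a median GC content of 33.7%, against 58.7% over all 35116 promoters of the table. TATAAA was found in 4 of the 7 (57.1%), against 1 of 13 promoters of the other bitter receptors (7.69%, median GC content 40.7%) and 11.5% of all promoters. These counts include matches on either strand. None of the motif shares was matched for GC content. TATAAA holds only A and T, so a promoter of low GC content may hold it by composition alone, which was not tested. Near the start, TAS2R30 read TATAAA, with its leftmost base at -24 (the start being +1). The match of TAS2R10, with its leftmost base at -27, was on the opposite strand and reads TTTATA as printed. All matches of TAS2R13 and TAS2R19 lay further upstream than these. The octamer was found in TAS2R10 and TAS2R13 (28.6% of the 7), in 8 of 13 promoters of the other bitter receptors (61.5%), and in 1.77% of all promoters. The loose AP-1 motif was found in TAS2R13 alone of the 7 (14.3%), where it reads TGAATCA. It was found in 1 of 13 promoters of the other bitter receptors (7.69%) and in 7.71% of all promoters. Among the 21 pairs of receptor promoters, identity after global alignment ranged between 49.0% and 68.6%, with a median of 52.3%. No other promoters were aligned for comparison, so the median alone does not show that the promoters share sequence. The closest pairs were TAS2R50 with TAS2R19 (68.6%) and TAS2R20 with TAS2R30 (60.9%), and the longest run that each pair shares follows, in lower case.
TAS2R50 and TAS2R19: aatttgagctgttttga
TAS2R20 and TAS2R30: gattctgtgtatttaaatctggc

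TAS2R14, a broadly tuned receptor, had the largest difference of the cluster. In its exon region row, the signal was 7.29 and 7.44 in exposed cells (replicates C and D), against 5.63 and 5.82 in untreated cells (replicates A and B). Both exposed arrays lay above both untreated arrays, by at least 1.47. The means were 7.36 ± 0.11 in exposed cells and 5.73 ± 0.13 in untreated cells (SD, n = 2 arrays each), a log2 change of 1.64 (standard error 0.09) or 3.11-fold. This was the third largest rise among the 23383 rows with exactly 1 symbol. The row stood at or above 84.2% of all rows in exposed cells and 57.4% in untreated cells. The junction row of the same gene was brighter but differed less, at 7.71 and 7.74 in exposed cells, against 6.90 and 7.11 in untreated cells. Its groups did not overlap either, and its log2 change was 0.72 (standard error 0.08), or 1.64-fold. The rows of TAS2R14 thus shared a direction but not a size, with 0.72 for the junction row and 1.64 for the exon region row. Which transcripts of TAS2R14 each row measures was not tested.

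TAS2R30 and TAS2R43, closely related receptors at the far end of the cluster from TAS2R10, came next in the size of the change. The TAS2R30 row, of a receptor activated by denatonium, was at 6.74 and 7.04 in exposed cells, against 6.04 and 5.80 in untreated cells. The groups did not overlap, but the arrays within each group lay further apart than for TAS2R14. The log2 change was 0.97 (standard error 0.13), or 1.96-fold. TAS2R43, which responds to the plant compounds aloin and aristolochic acid, was at 6.19 and 6.58 in exposed cells, against 5.61 and 5.66 in untreated cells. Exposed replicate D stood well above replicate C, while the untreated arrays lay close together. The log2 change was 0.75 (standard error 0.13). Since these receptors resemble each other in sequence, RNA of one may have been read in the row of another, which was not tested.

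TAS2R50 and TAS2R19 had small errors, with replicates close to each other. TAS2R50 was at 5.72 and 5.76 in exposed cells, against 4.98 and 5.07 in untreated cells, a log2 change of 0.72 (standard error 0.05). TAS2R19, in which variants have been linked to the perceived bitterness of quinine, was at 5.28 and 5.32 in exposed cells, against 4.63 and 4.74 in untreated cells, a log2 change of 0.62 (standard error 0.05). In both genes, the gap between the lowest exposed array and the highest untreated array (0.66 and 0.54) was larger than the difference between any replicates. TAS2R19 was the dimmest of the 10 rows in untreated cells, at or above 25.0% of all rows, and at or above 46.4% in exposed cells.

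The remaining 4 rows differed by less than a fold of 1.5, which is 0.585 on the log2 scale. TAS2R13 was at 5.47 and 5.53 in exposed cells, against 5.04 and 4.87 in untreated cells, a log2 change of 0.55 (standard error 0.07). TAS2R46, a broadly tuned receptor for strychnine and sesquiterpene lactones, was at 5.24 and 5.33 in exposed cells, against 4.70 and 4.81 in untreated cells (0.53, standard error 0.06). TAS2R10, which also responds to strychnine, was at 5.20 and 5.40 in exposed cells, against 4.72 and 4.85 in untreated cells (0.52, standard error 0.09). None of these rows overlapped between the groups. TAS2R20, which responds to the antiallergic drug cromolyn, had the smallest change, 0.37 (standard error 0.07), with 5.179 and 5.283 in exposed cells, against 4.796 and 4.921 in untreated cells. Since the array reads bulk RNA, more RNA per cell and more cells with the RNA cannot be told apart.

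**Figure D1:**
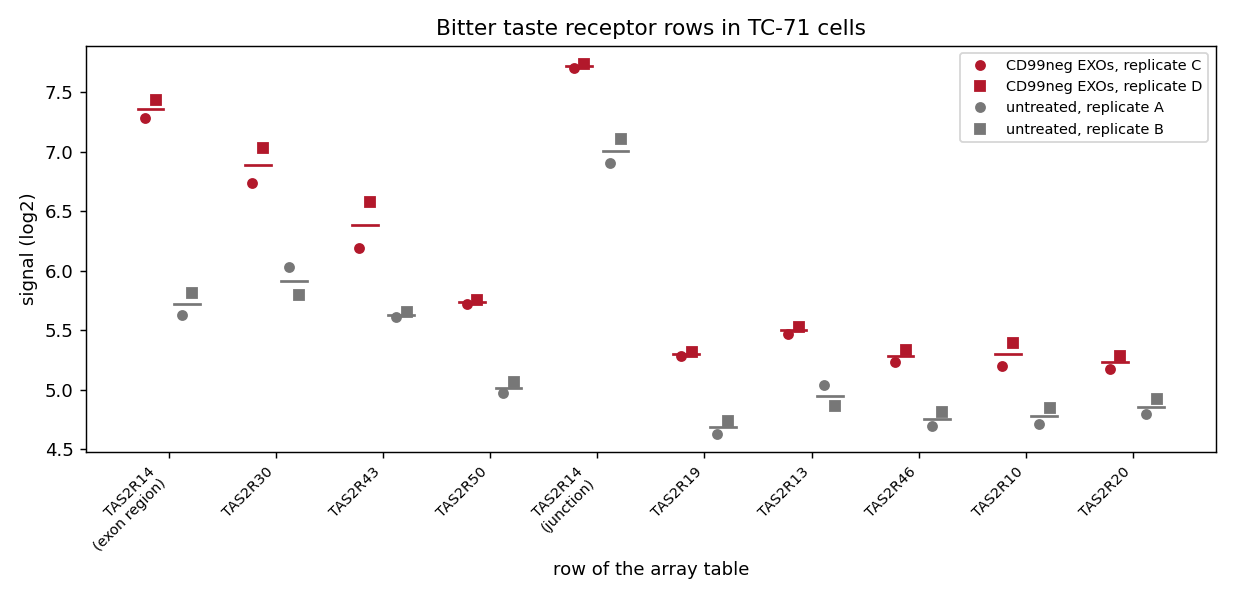
Signal (log2) of the 10 rows in each array, with replicates C and D of TC-71 cells exposed to CD99neg EXOs left of untreated replicates A and B. Short lines are the means of 2 arrays, rows are ordered by the size of the change, and in all 10 rows both exposed arrays lie above both untreated arrays.

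In all, the log2 change of the 10 rows ranged between 0.37 and 1.64, with a median of 0.67, against a median of 0.01 over all 67539 rows. Calls in limma required a 1.5-fold difference together with an adjusted p no higher than 0.05 (Benjamini-Hochberg, over all rows). By this rule 6 of the 10 rows were called higher, those of TAS2R14 (both), TAS2R30, TAS2R43, TAS2R50 and TAS2R19, and 0 lower, beside 1.54% of all rows called higher, 1.04% called lower and 2.59% called in either direction. The exposed arrays lay above the untreated arrays in 10 of the 10 rows, beside 28% of all rows. These counts follow from how the genes were chosen. TAS2R19 (0.62) was the called row nearest to the fold threshold and TAS2R13 (0.55) the nearest row below it. The call of TAS2R30 was lost without untreated replicate A or B, that of TAS2R19 without A, and that of TAS2R43 without A, B or exposed replicate D. Median centring of the arrays also ended the calls of TAS2R19 (0.57) and TAS2R43 (0.71), and another quantile normalization or cyclic loess ended that of TAS2R43. Without exposed replicate C, TAS2R10 (0.61) was called as well, and without A, TAS2R13 (0.63).

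The rows also differed together within a group, a comparison that the choice of the genes did not use. Replicate D was above replicate C in 10 of the 10 rows, by a median of 0.10, whereas 46.6% of all rows were higher in D. Replicate B was above replicate A in 8 of the 10 rows, by a median of 0.11, whereas 39.7% of all rows were higher in B. TAS2R30 (-0.24) and TAS2R13 (-0.17) were the exceptions, lower in B than in A. The difference between replicates was largest for TAS2R43 in exposed cells (0.39). Among the 14 other bitter receptors with a named row, D was above C in 4 and B above A in 5. Several of the rows come from similar genes, so they are not independent of each other, and these counts carry no test.

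**Figure D2:**
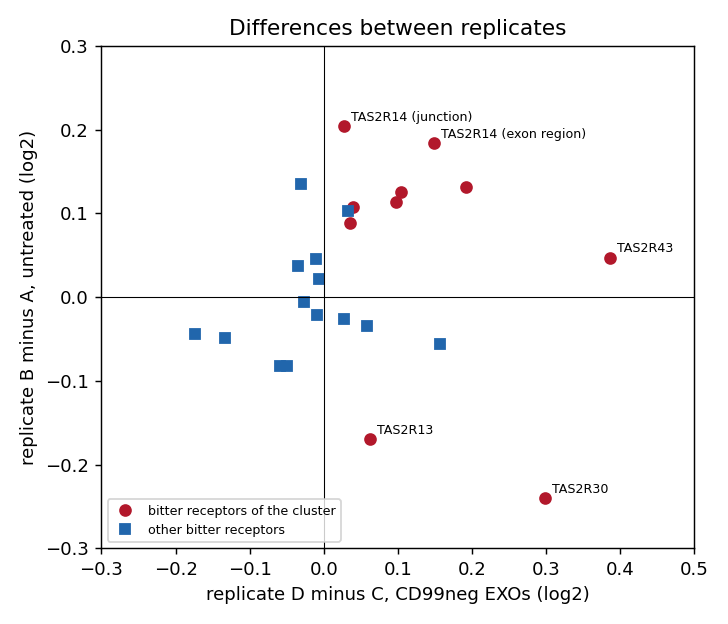
Difference between replicates D and C of exposed cells (log2, horizontal axis) against that between replicates B and A of untreated cells (log2, vertical axis), for the 10 rows of the cluster (circles) and 14 rows of other bitter receptors (squares). All circles lie right of 0, and 8 of the 10 lie above 0.

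The other bitter receptors of chromosome 12 had changes near 0. Whether rows this dim can show where along the chromosome the higher signal ended was not tested. TAS2R7, TAS2R8 and TAS2R9, which neighbour TAS2R10, and TAS2R42, beyond TAS2R30 and outside PRH1, had log2 changes between -0.02 and 0.04. They were also among the dimmest rows, with means between 4.44 and 4.63 in exposed cells and between 4.44 and 4.59 in untreated cells. TAS2R9, for instance, was at 4.44 and 4.44 in exposed cells, against 4.43 and 4.45 in untreated cells. At such signals a change in the RNA may not be visible. TAS2R42, the brightest of them, had a mean of 4.59 in untreated cells and 4.63 in exposed cells. TAS2R19 of the cluster had means of 4.69 and 5.30. The pseudogene TAS2R64P, between TAS2R46 and TAS2R43, was at 4.99 and 5.39 in exposed cells, against 4.97 and 4.99 in untreated cells. These differ by 0.21 on the log2 scale (limma adjusted p = 0.526, standard error 0.14), with the higher signal in replicate D alone. The pseudogene was added after its value was seen. TAS2R45 stands only in the row of several symbols that holds TAS2R31.

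Other genes of the same stretch, within 500000 bases of the cluster in RefSeq, were not called. Of 45 such genes, 13 had a named row, and 0 of these were called by limma. An unadjusted p under 0.05 was found for 2 of the 13 (15.4%), beside 22.2% of all rows and 28.6% of rows with exactly 1 symbol. The 13 rows had a median log2 change of -0.02 and ranged between -0.35 and 0.13. Only 7 of the 13 rows stood at or above the median signal of all rows, and in the dimmest a change may not be visible. PRH1, whose span holds 9 of the receptors, was at 5.83 and 5.76 in exposed cells, against 5.77 and 5.77 in untreated cells, a log2 change of 0.02 (standard error 0.04, adjusted p = 0.900). The groups overlapped in this row, whose identifier is that of a junction. The salivary genes PRB1, PRB2, PRB3 and PRB4, beyond the other end, had changes between -0.09 and 0.00. MAGOHB, an exon junction complex subunit on the KLR side of the cluster, had the largest change, -0.35 (standard error 0.08, adjusted p = 0.0711), with 6.73 and 6.93 in exposed cells, against 7.15 and 7.21 in untreated cells. PRR4, PRH2 and PRH1-PRR4 occur only in rows of several symbols, and PRH1-TAS2R14 and SMIM10L1 in no named row, so none of them has a value here. Of the 1139 other named rows of chromosome 12, 7 were called higher and 17 lower, beside 1.54% and 1.04% of all rows. Among the 23383 rows with exactly 1 symbol, 263 were called higher and 218 lower.

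**Figure D3:**
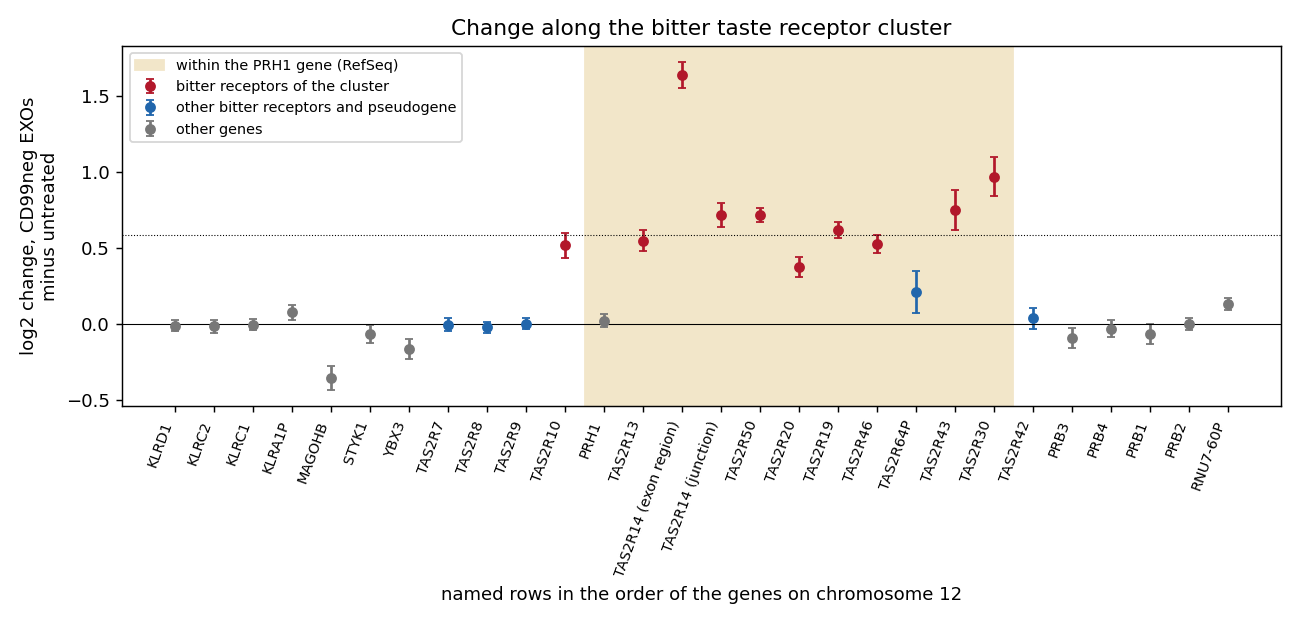
Log2 change (CD99neg EXOs minus untreated, vertical axis, bars of 1 standard error) of named rows in the order of their genes on chromosome 12. The shaded stretch is the span of PRH1 in RefSeq and the dotted line a fold of 1.5. The 10 receptor rows between TAS2R10 and TAS2R30 lie between 0.37 and 1.64, while the pseudogene TAS2R64P (0.21) lies below them and PRH1 (0.02) and the receptors TAS2R7, TAS2R8, TAS2R9 and TAS2R42 lie near 0.

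No bitter receptor on another chromosome was called by limma. Of 10 measured, 1 on chromosome 5 and 9 on chromosome 7, 0 were called by limma, with a median log2 change of 0.05. An unadjusted p under 0.05 was found for 4 of these 10, and for 0 of the 4 others on chromosome 12. The share was 22.2% over all rows and 28.6% over rows with exactly 1 symbol. The change was above 0 in 9 of the 10, and the exposed arrays lay above the untreated arrays in 6 of the 10, beside 28% of all rows. TAS2R3 had the largest change, 0.39 (standard error 0.06, limma adjusted p = 0.0276), at 5.22 and 5.09 in exposed cells, against 4.79 and 4.74 in untreated cells. TAS2R4, its neighbour on chromosome 7, was at 5.03 and 5.06 in exposed cells, against 4.73 and 4.84 in untreated cells, a log2 change of 0.26 (standard error 0.05, adjusted p = 0.0497). Both passed the adjusted p but not the fold of 1.5. The change of TAS2R3 was about that of TAS2R20 (0.37), the smallest of the chromosome 12 rows. TAS2R5, which follows them, had 0.25 (standard error 0.07, adjusted p = 0.117). TAS2R38, the receptor behind inherited sensitivity to phenylthiocarbamide, had 0.02, and TAS2R16, a receptor for the willow bark glucoside salicin, had 0.01. The sweet and umami receptors TAS1R1, TAS1R2 and TAS1R3 had 0.02, 0.05 and 0.09, and 0 of the 3 were called by limma, with 0 at an unadjusted p under 0.05.

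No measured gene of the taste signalling cascade was called higher by limma. The list used was wider than the cascade described above, and also held GNAT1, GNAT2, P2RX2, P2RX3, SCNN1A, SCNN1B and SCNN1G, among others. Of 27 measured genes in the list, 0 were called higher and 1 lower, with a median log2 change of -0.02. An unadjusted p under 0.05 was found for 10 (37.0%), beside 22.2% of all rows and 28.6% of rows with exactly 1 symbol. GNAT3, the alpha subunit of gustducin, was among the dimmest rows, at 4.49 and 4.46 in exposed cells, against 4.49 and 4.49 in untreated cells. Its partner GNG13 had a log2 change of 0.06 (adjusted p = 0.854) and the channel TRPM5 one of -0.03 (adjusted p = 0.932). PLCB2, phospholipase C beta 2, passed the adjusted p without the fold, at 7.74 and 7.78 in exposed cells, against 7.98 and 7.97 in untreated cells (-0.21, standard error 0.04, adjusted p = 0.0421). ITPR3, the inositol trisphosphate receptor of taste cells, had -0.17 (adjusted p = 0.0672). The inhibitory G protein alpha subunits GNAI2 and GNAI3 moved in opposite directions, with 0.32 (adjusted p = 0.0174) and -0.36 (adjusted p = 0.0319), both below the fold of 1.5. The called gene was SCNN1G, a subunit of the epithelial sodium channel that is not part of the cascade described above. Its change was known when the list was written. It was at 8.16 and 8.17 in exposed cells, against 8.95 and 9.03 in untreated cells, with a limma adjusted p of 0.00515 for the log2 change of -0.83 (standard error 0.05). The other channel subunits, SCNN1A and SCNN1B, had -0.03 and -0.06.

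**Figure D4:**
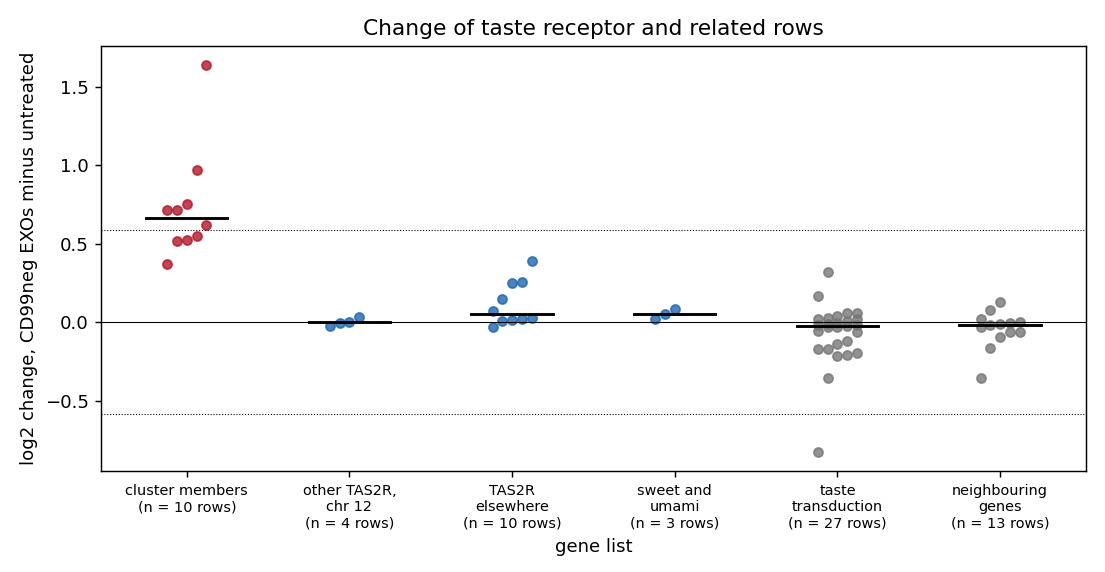
Log2 change (CD99neg EXOs minus untreated) of each row in 6 gene lists, with the median of each list as a black line and a fold of 1.5 in either direction as dotted lines. The cluster has its median at 0.67, and the other lists have theirs between -0.02 and 0.05, with SCNN1G the lowest point at -0.83.

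Markers of the cell line and of other cell types were checked beside the receptors. Of 9 EWS marker rows, 0 were called higher and 1 lower by limma. An unadjusted p under 0.05 was found for 7 (77.8%), beside 22.2% of all rows and 28.6% of rows with exactly 1 symbol. CD99 had 2 rows, at 10.05 and 10.24 in exposed cells, against 9.73 and 9.96 in untreated cells (means of 2 arrays). Both passed the limma adjusted p without the fold, with log2 changes of 0.32 (adjusted p = 0.0161) and 0.29 (adjusted p = 0.0231). The EWS-FLI1 partner gene FLI1 was at 6.56 in exposed cells, against 6.65 in untreated cells. NKX2-2, STEAP1, CCND1 and PRKCB are genes that are high in EWS. Their means lay between 8.05 and 11.0 in exposed cells and between 7.82 and 11.2 in untreated cells. LIPI, also in the list, had means of 7.18 in exposed cells and 7.07 in untreated cells. In both groups, PLCB2 and ENTPD2 (taste receptor cell markers) and both KRT8 rows (epithelial) stood above FLI1. Their means in exposed cells were 7.76, 6.68, 6.61 and 6.58. The other taste receptor cell, epithelial, salivary and leukocyte marker rows stood below FLI1. Since a difference in level is not read as one between genes, these levels do not show which markers were present. NR0B1, a target of EWS-FLI1, was called lower, with means of 6.32 in exposed cells and 6.94 in untreated cells (-0.62, adjusted p = 0.0137). Of 7 taste receptor cell markers, 0 were called by limma, with 1 at an unadjusted p under 0.05 (PLCB2, lower), and POU2F3, a transcription factor of taste receptor cells, had a log2 change of 0.04. Likewise 0 of 5 epithelial, 0 of 3 salivary and 0 of 3 leukocyte marker rows were called by limma, with 0 at an unadjusted p under 0.05, and their median changes lay between -0.01 and 0.00.

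The genes with the profile most like that of TAS2R14 over the 4 arrays were taken as the named rows with the smallest distance to its exon region row, each row centred on its own mean. They were MIR1206 (distance 0.21), PAPPA (0.25), MIR181B1 (0.30), MIR1207 (0.31) and MIR4474 (0.32). PAPPA encodes a secreted protease that cleaves insulin-like growth factor binding proteins, and was at 9.381 and 9.373 in exposed cells, against 7.902 and 8.004 in untreated cells. The others are microRNA hairpin genes, with log2 changes between 1.35 and 1.78. With 4 arrays in 2 groups, such a distance mostly measures the size of the difference between the groups.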

How the data were processed

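TC-71 cells were measured on 4 arrays, 2 exposed to CD99neg EXOs and 2 untreated, grouped by the treatment in the labels. The log2 values deposited by the authors were used as they are. They come from GeneSpring, where the authors applied ExonRMA16 summarization and quantile normalization with no baseline transformation. The genome build of the annotation is not given in the sources used here. Of 67539 rows, 31569 have a junction and 35970 an exon region identifier. The methods speak of transcript clusters, and whether a row stands for its own feature or for a whole cluster is not given in the sources used here. The platform table gives exactly 1 symbol to 23383 rows, several to 1225 and none to 42931. Older symbols were updated through RefSeq (GRCh38.p14) for all lists but the receptors themselves.

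In R 4.3.3, moderated linear models were fitted to all rows by limma 3.58.1, as exposed minus untreated, with 2 residual and 2.59 prior degrees of freedom, after a check on simulated data. Calls needed a 1.5-fold difference and a Benjamini-Hochberg adjusted p no higher than 0.05. The receptors and lists were chosen with earlier results of these data known. Every row of the receptors is named. From the other lists, called rows, the largest changes, 5 set cascade genes and PRH1 are named, and further genes were picked after their values were seen. Promoters were aligned with Biopython 1.88. Alternatives varied the variance model, scaling, filters and thresholds, and left out each array. The number of arrays limits the precision.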

Additional observations from a re-analysis of the deposited data

How the results depend on the processing

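The log2 changes of the 10 receptor rows kept their direction under all alternatives run, 124 values in all. Most of this was bound to hold. The variance models and row filters do not alter a log2 change. Leaving out an array cannot reverse one, since no row overlapped between the groups. Of the 124 values, 106 stayed on their side of the call, 16 lost it and 2 gained it. The median log2 change of the receptor rows was 0.67, between 0.58 and 0.72 over the scalings, the variance models and the arrays left out in turn, 0.62 with TAS2R14 counted once by its brighter row (added after the data were seen), and 0.86 with rows below the median signal left out, which keeps only 4 of the 10 rows. Of the 6 called rows, all 6 stayed with a variance trend, with robust moderation, with centring on reference genes and with identical rows counted once, 5 after another quantile normalization or cyclic loess (without TAS2R43), and 4 with median centring (without TAS2R43 and TAS2R19). With an array left out, between 4 and 7 of the 10 rows were called. Without untreated A these were 3 of the 6 and TAS2R13, and without exposed C all 6 and TAS2R10. Without moderation 0 of the 10 passed, with 9 at an unadjusted p under 0.05 beside 15.4% of all rows, since the adjusted p passed for 0 of all rows in that test. A fold of at least 2 left 1, TAS2R14, beside 0.623% of all rows, and no fold threshold gave 10, beside 9.7% of all rows. Calls of the other receptors (0), the neighbouring genes (0) and the taste signalling list (1, SCNN1G) did not change under the alternatives run for them. No row of the other receptors was left without dim rows, so that setting says nothing about those receptors. The scalings moved the median of all rows by less than 0.1. No paired analysis was possible because the replicate letters C and D of exposed cells and A and B of untreated cells are not shared between the groups.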

Other observations

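Olfactory receptors, another large family of mostly intronless receptor genes, were looked at after the bitter receptors were seen. Of 467 rows for 390 genes with an OR symbol, pseudogenes included, 0 were called by limma. An unadjusted p under 0.05 was found for 27 (5.78%), beside 22.2% of all rows and 28.6% of rows with exactly 1 symbol. The log2 changes of the olfactory rows ranged between -0.21 and 0.55, with a median of 0.01, as over all rows. The exposed arrays lay above the untreated arrays in 28.7% of these rows, against 28% of all rows. As a group the olfactory rows were dim, with a median signal of 4.62 in exposed cells and 4.61 in untreated cells. Over all rows these medians were 5.45 and 5.40. At such low signals a change in the RNA may not be visible.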
